A study of Mus musculus with 2 samples.

Results

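CTCF ChIP-seq of newborn mouse stomach left a large class of peaks that both replicates show but that the authors' optimal peak list does not hold. The stomach tissue came from postnatal day 0 animals of strain B6NCrl, with no treatment or mutation named, and formed 1 group of 2 samples, numbered as biological replicates 1 and 2. ChIP-seq sequences the DNA that an antibody, here against CTCF, recovers from fixed chromatin. By the labels, the replicates share 1 donor and 1 tissue sample, so the spread between them may be technical. Sex was not collected. The depth behind a peak is unknown, and the control libraries are not analysed here.

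The members were selected on their signal and replication. A peak of the pooled relaxed list, the authors' permissive list of 300000 peaks from both replicates together, was taken when its deposited −log10 q-value was at least 2, when no peak summit of the optimal list lay within 300 bp, and when each single-replicate relaxed list had a summit within 100 bp. IDR, which scores how well the ranks of peaks match between replicates, gave the optimal list of 74293 peaks and a conservative list. Of the 126102 pooled peaks that met the q-value rule, 51849 lay away from the optimal list, and 35877 of these, 69.2%, had a summit in both replicates. On the assembled chromosomes there were 35865 members, called non-optimal replicated peaks here, against 74283 optimal peaks and 15962 non-optimal peaks that lacked a summit in at least 1 replicate, called unreplicated. A further set of 14061 peaks met the replicate and distance rules with a −log10 q-value below 2. The optimal and conservative lists are subsets of the pooled list with the same summits and signals, so all these sets share a scale.

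CTCF is a zinc finger protein that recognises a long DNA motif and binds at insulators, at many promoters and at the anchors of chromatin loops, where it halts the cohesin ring. Its binding to a site depends on the match to the motif and on DNA methylation and chromatin at the site. Some mammalian CTCF sites lie within transposable elements, among which the B2 SINEs of rodents are known to carry a CTCF motif.

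The sequences shown are those of the members with the closest match to the motif, of members that carry a repeated site, and of promoter members chosen for having no motif; most members, inside and outside promoters, had none. The motif was a matrix of 19 positions learned from optimal peaks of chromosome 1, with the consensus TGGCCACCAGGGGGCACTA and a highest possible score of 25.4. Outside chromosome 1, the 3 members of highest score, 24.1 each, lay upstream of Trem1, in an annotated intron upstream of Nap1l2 and 417936 bp upstream of Gm44, at chr17:48203808-48203908, chrX:103193219-103193319 and chrX:90474156-90474256 (mm10, plus strand, RefSeq sequence). The capitals mark the motif.
Trem1: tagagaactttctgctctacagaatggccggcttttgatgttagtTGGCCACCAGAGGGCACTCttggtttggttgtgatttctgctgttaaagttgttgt
Nap1l2: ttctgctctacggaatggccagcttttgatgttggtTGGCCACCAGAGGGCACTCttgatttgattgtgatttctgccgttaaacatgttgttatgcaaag
Gm44: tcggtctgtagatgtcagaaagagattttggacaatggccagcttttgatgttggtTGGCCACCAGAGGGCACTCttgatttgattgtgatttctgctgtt
The 3 windows hold the same motif letters and, aligned on the motif, agree at 76.7% to 91.3% of their bases. In the reference, 53.5% of the Trem1 window, 61.4% of the Nap1l2 window and 63.4% of the Gm44 window are masked as repeat. The highest scores did not go with a high signal in these 3. The Trem1 member had a signal of 10.2 in replicate 1 and 8.04 in replicate 2, with 18.7 in the pooled list. For the Nap1l2 member the signals were 5.43, 8.12 and 14.1 in the same order, and for the Gm44 member 9.80, 2.66 and 12.5.

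The most frequent exact motif site of the members was ACACCAGAAGAGGGCATCA, and the 3 strongest members that carry it are printed with the letters around it. They lie in annotated introns, nearest to the starts of Gm9736, Mtf2 and Hdac7, at chr10:77753626-77753726, chr5:108090948-108091048 and chr15:97870277-97870377 (mm10), with the Gm9736 window given on the minus strand and the capitals on the site.
Gm9736: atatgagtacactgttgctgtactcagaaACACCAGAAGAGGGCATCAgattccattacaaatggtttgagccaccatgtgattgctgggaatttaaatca
Mtf2: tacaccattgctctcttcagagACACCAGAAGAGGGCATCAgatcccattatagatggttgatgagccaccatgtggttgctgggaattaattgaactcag
Hdac7: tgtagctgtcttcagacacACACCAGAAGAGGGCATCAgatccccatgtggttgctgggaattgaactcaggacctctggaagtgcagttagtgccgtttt
Aligned on the site, and with the shared site counted, the Gm9736 and Mtf2 windows agree at 63.8% of their bases. Gm9736 and Hdac7 agree at 50.5%, and Mtf2 and Hdac7 at 48.0%. All 3 windows are at least 97.0% masked as repeat. The site scores 15.7 with the matrix, and the pooled signals were 44.7, 37.6 and 37.3. In replicates 1 and 2 the signals were 19.5 and 23.0 near Gm9736, 19.1 and 17.3 near Mtf2, and 19 and 17.9 near Hdac7.

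Promoter members without a motif are shown for their letters. Those of highest signal that lay within 1 kb of a coding transcription start site (TSS), outside untranslated regions and without a motif were at chr3:94975271-94975371 near Pi4kb, chr11:95076134-95076234 in Itga3 and chr11:82889887-82889987 near Rad51d (mm10, plus strand). They are printed with no capitals since no motif reached the threshold.
Pi4kb: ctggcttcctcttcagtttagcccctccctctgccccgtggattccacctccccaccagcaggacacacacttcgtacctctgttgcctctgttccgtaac
Itga3: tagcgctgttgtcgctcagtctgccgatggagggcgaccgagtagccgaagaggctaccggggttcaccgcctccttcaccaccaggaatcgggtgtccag
Rad51d: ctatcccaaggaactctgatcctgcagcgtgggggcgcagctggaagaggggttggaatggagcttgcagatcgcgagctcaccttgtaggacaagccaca
Their best scores were 4.99, 6.98 and 2.66, below the threshold of 10.6 that 1% of random windows reach, as the choice requires. GC content was 58.4%, 63.4% and 58.4%. The Pi4kb member had signals of 42.0 and 27.4 in replicates 1 and 2, the Itga3 member 34.4 and 26.1, and the Rad51d member 23.7 and 26.7.

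Signal, the value of the authors' peak caller, chose the members in part, since the deposited q-value follows it within the pooled list, and is given as a description. The members ran from 9.85 to 312 with a median of 14.4 and quartiles of 11.9 and 18.1, against a median of 76.6 and quartiles of 34.9 and 229.9 in the optimal list. The median was 11.6 for the unreplicated peaks and 8.29 for the replicated peaks of lower q-value. In rank, the members lay between 12412 and 126102 of the pooled list, with a median of 94505. Just inside the q-value threshold, from 2 to 2.1, 1547 members had a median signal of 10, and just outside it, from 1.9 to 2, 775 peaks had 9.74. Near the limit of the replicate rule, 940 members had their farther replicate summit at 91 to 100 bp, and 845 other peaks up to 10 bp beyond the limit, and the median signal was 12.5 in each. An optimal summit lay up to 50 bp beyond the 300 bp limit in 14 members, with a median signal of 17.8, and up to 50 bp inside it in 6 non-optimal peaks, with 21.1. Nearly all members, 99.9%, were 296 bp wide, against 50.9% of optimal peaks.

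In the replicates the members were shallow. Their median signal was 7.73 in replicate 1 (quartiles 5.84 and 10.5) and 5.88 in replicate 2 (quartiles 4.37 and 7.97), against 45.1 and 32.0 for optimal peaks. The ratio of replicate 1 to replicate 2 had a median of 1.33 in the members and 1.33 in the optimal peaks, but its quartiles lay at 0.905 and 1.95 in the members and at 1.16 and 1.62 in the optimal peaks. Across members, the signals of the replicates were weakly related, with a Spearman correlation of 0.122, against 0.949 across the optimal peaks found in both. The rule limits the range of the members' signals, so the difference between these values is a description only. Each member had a peak of its own in each replicate list. Its summit lay a median of 7 bp from the replicate 1 summit and 12 bp from the replicate 2 summit, and both were within 50 bp in 80.8% of members. In both replicates' own lists the −log10 q-value reached 2 in 58.4% of members, against 98.0% of optimal peaks.

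**Figure D1:**
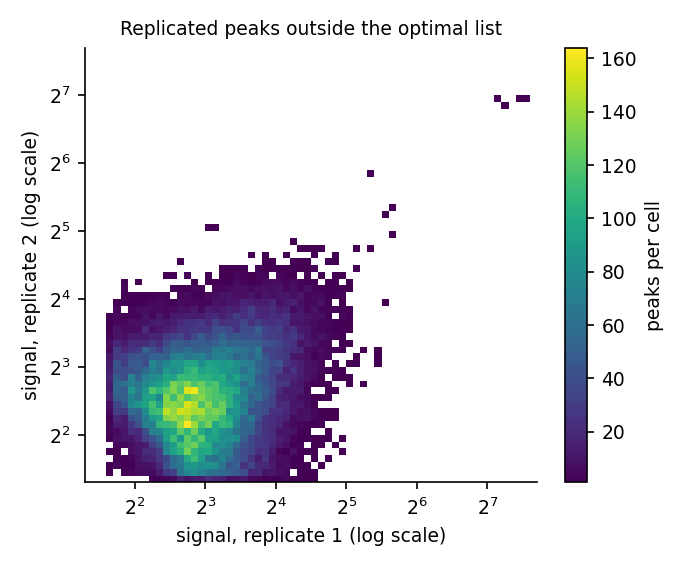
Signal in replicate 1 (horizontal) and replicate 2 (vertical) for the 35865 non-optimal replicated peaks, both on log scales, with colour for the number of peaks per cell. Most peaks form a round cloud about the medians of 7.73 and 5.88, and 4 lie far above it in both replicates.

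The members of highest signal stood well apart from the rest. The peak of highest signal lay between genes, 64866 bp upstream of Cr2, which encodes a complement receptor of B cells (chr1:195241446-195241743, mm10), with signals of 191 in replicate 1, 122 in replicate 2 and 312 in the pooled list. The second lay between genes near Gm6020 on chromosome 19, with 174, 123 and 299 in the same order. Their windows were aligned on the motif, in capitals, at chr1:195241532-195241632 and chr19:61199506-61199606.
Cr2: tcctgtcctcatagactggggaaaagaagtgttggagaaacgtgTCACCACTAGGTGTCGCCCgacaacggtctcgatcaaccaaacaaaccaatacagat
Gm6020: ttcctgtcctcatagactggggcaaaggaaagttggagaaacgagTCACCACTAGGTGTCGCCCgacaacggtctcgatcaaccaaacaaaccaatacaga
The windows agree at 95 of 100 bases and score 17.9. A member near Gm21060 on chromosome 19, with signals of 155, 112 and 263, and a motif score of 14.8, shares 50% of aligned bases with the Cr2 window. These 3 peaks lie 230389, 232010 and 164953 bp from the ends of their chromosomes in the assembly, and none is in the conservative list. The sources used here do not say how reads that match several places were treated.

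The third in signal was a peak in an annotated intron, 2166 bp upstream of the start of Dlgap5, a mitotic spindle gene, with 146 in replicate 1, 124 in replicate 2 and 272 in the pooled list, and it was in the conservative list. Below these 4, and leaving out chromosome 18, the next signals were 90.3 at Trp53i11 and 88.0 at Rab31, which encodes a vesicle GTPase. A member 7154 bp upstream of Hsf1, the heat shock factor gene, had a pooled signal of 84.1, with 50.4 and 32.0 in replicates 1 and 2. Krt20, a keratin of differentiated gut epithelium, held one in a coding exon with 47.3 in replicate 1 and 15.1 in replicate 2, an unequal pair, and 80.6 in the pooled list. The last of the 10 highest were the promoter members at Pi4kb, a lipid kinase gene, with 68.0, and at Itga3, which encodes an integrin of epithelia, with 59.6. Of the 10, 7 were in the conservative list, namely Dlgap5 and all those from Trp53i11 down to Itga3.

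A CTCF motif lay within 50 bp of the summit in 11893 of 33519 members outside chromosome 1, or 35.5% (exact 95% interval 35.0 to 36.0, counting error only), against 66.8% of optimal peaks, 22.0% of unreplicated peaks and 15.8% of replicated peaks of lower q-value. Windows 1 kb from the members held it in 1.68%. Members were higher than their own windows 1 kb away, than unreplicated peaks and than the lower q-value set on 19 of 19 chromosomes, and lower than optimal peaks on all 19. Neighbouring peaks are not independent replicates, and no test was made. Where present, the motif was a weaker match and less centred. Its median score was 14.6 in members and 16.3 in optimal peaks. A score that only 0.1% of random windows reach, 17.4, was met by 14.8% of the members with a motif and 37.0% of the optimal peaks with one. The motif centre lay within 10 bp of the summit in 49.5% of members with a motif and 77.4% of such optimal peaks. On average 11.6 of the 19 positions matched the consensus in 11511 members and 12.3 in 44953 optimal peaks with a motif, outside chromosomes 1 and 18.

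Peaks of similar signal did not always have the same motif share in the different sets. The lowest band ran from a signal of 9 to 12, and optimal peaks below it, down to 4.99, are in no band. In that band the motif was in 25.8% of 8601 members (24.9 to 26.8) and 6.88% of 218 optimal peaks (3.90 to 11.1). Unreplicated peaks there had it in 20.4% of 8409 (19.5 to 21.2). From 12 to 15 the shares were 33.2% in members, 13.9% in optimal peaks and 24.0% in unreplicated peaks. Between 15 and 20 members had 40.1% (39.1 to 41.2) and optimal peaks 38.7% (37.0 to 40.4), with overlapping intervals, and from 20 to 30 the shares were 45.5% and 46.6%. Above 30, a band with no upper limit, 49.0% of 923 members had the motif, against 72.7% of optimal peaks. The signals there are not alike, since the lowest of the 10 strongest named members had 59.6 and the optimal list a median of 76.6. Optimal peaks of signal 9 to 12 were few, 231, and lay at promoters more often. In that band, 12.4% of members (11.7 to 13.1) and 57.1% of optimal peaks (50.5 to 63.6) were within 1 kb of a coding TSS. The share was 17.8% in unreplicated peaks (17.0 to 18.6). Among unreplicated peaks the TSS share went up with signal, to 60% of the 35 peaks above 30 (42.1 to 76.1). In members it went up as well, to 23.6% above 30.

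**Figure D2:**
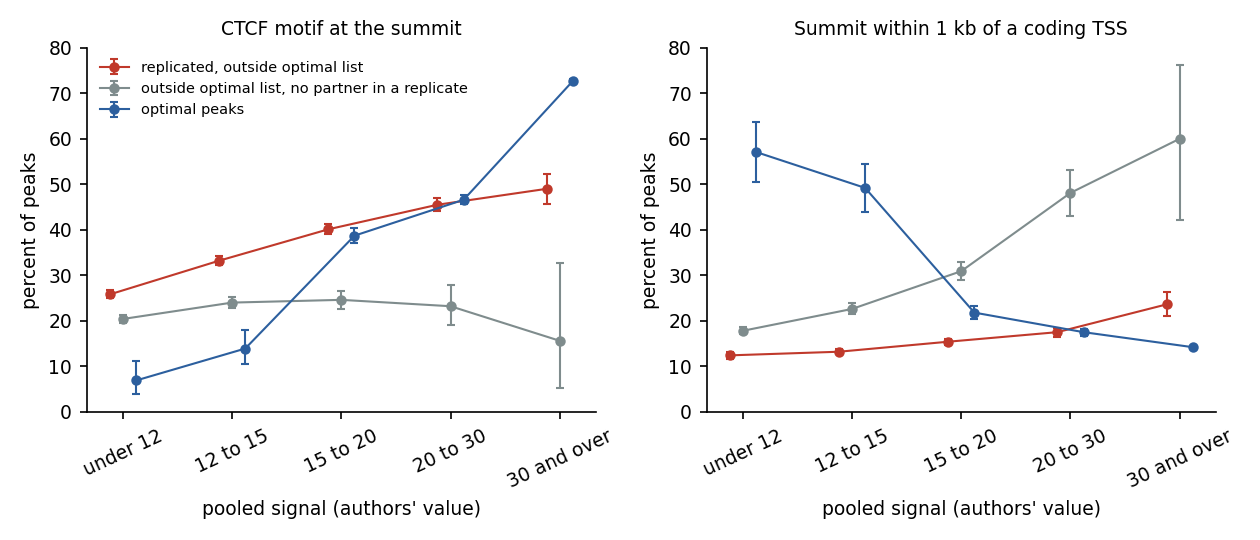
Percent of peaks with the CTCF motif within 50 bp of the summit (left) and within 1 kb of a coding TSS (right) by pooled signal, for non-optimal replicated, unreplicated and optimal peaks, with exact 95% intervals. The band named under 12 starts at 9, and optimal peaks below 9 are not shown. The members' motif share runs from 25.8% in that band to 49.0% at 30 and over. It lies above the unreplicated peaks in each band, and meets that of optimal peaks between 15 and 30.

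The motif share depended on repeat masking in every set. Of the member windows, 24.5% were over 50% masked as repeat, against 18.1% of optimal, 19.4% of unreplicated and 20% of lower q-value windows, and the members' share was the higher against each set on 20 of 20 chromosomes. Among windows over 50% masked, 72.1% of member windows held the motif and 89.3% of optimal windows. In windows with no masked base the shares were 20.1% and 58.6%. The masking is that of the RefSeq sequence and names no repeat family.

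Single motif sites recurred many times among the members. Of the 11511 member sites compared with the consensus, 40.2% had letters shared exactly with another member, against 31.1% of 44953 optimal sites. The site printed above, ACACCAGAAGAGGGCATCA, was chosen because it is the most frequent one in members, so its counts are a description. It made up 618 member sites, or 5.37%, and 293 optimal sites, or 0.652%. With up to 2 mismatches the shares were 23.1% of member sites and 7.12% of optimal sites. Windows over 50% masked held 99.4% of the 618 sites.

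The copies of the site across the genome show how few of them became a peak. There were 11704 exact copies on the autosomes and X, all in masked sequence, and 6.13% had a member summit within 50 bp, 2.92% an optimal summit, 14.4% another peak of the pooled relaxed list and 76.5% none. A close relative gave a different picture. The second most frequent member site differs from it by C2G and A3G, with the letter of the more frequent site before the position, counted from 1 at the 5′ end, and the third by A16G. The second most frequent optimal site differs by C2G, A3G and T17C. Called sites 1 to 4 in this order, they are given with the letters that differ from site 1 in capitals, and site 1 with each position at which another site differs in capitals.
Site 1: aCAccagaagagggcATca
Site 2: aGGccagaagagggcatca
Site 3: acaccagaagagggcGtca
Site 4: aGGccagaagagggcaCca
Site 2 had 1398 copies, of which 16.7% lay at a member and 55.9% at an optimal peak, and 14.0% had no peak. Site 4 had 542 copies, with 12.5% at a member, 74.0% at an optimal peak and 6.09% without a peak. Site 3, with 2630 copies, was close to site 1, with 7.57% at a member, 3.38% at an optimal peak and 75.6% without a peak. The motif scores were 15.7, 17.7, 15.6 and 20.7 for sites 1 to 4. With the other 17 letters of site 1 held, 13 letter pairs at positions 2 and 3 had 100 copies or more. In the 6 pairs with a G at either position, 10.8% to 19.5% of copies lay at a member and 30% to 55.9% at an optimal peak. For the 7 pairs without a G, the shares were 1.76% to 16.9% at a member and 1.42% to 23.9% at an optimal peak. These pairs were examined after the difference between sites 1 and 2 was seen. DNA methylation and the mapping of reads to each copy were not measured here, and their part was not tested.

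**Figure D3:**
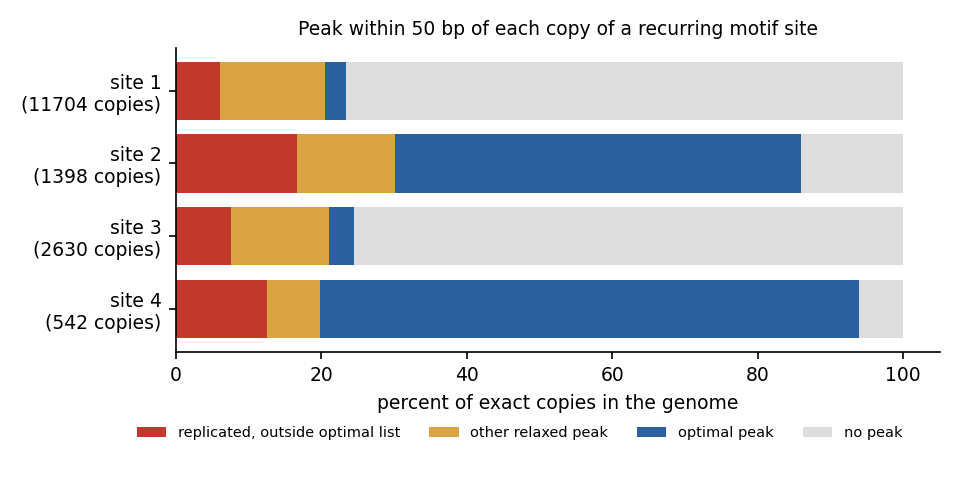
Percent of exact genome copies of 4 recurring motif sites that have a non-optimal replicated peak, another relaxed peak, an optimal peak or no peak within 50 bp (horizontal stacked bars from 0 to 100). Site 1 and site 3 copies mostly have no peak, at 76.5% and 75.6%, while site 2 and site 4 copies mostly lie at optimal peaks, at 55.9% and 74.0%.

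Promoters held 5206 members, or 14.5% (14.2 to 14.9), as counted by a summit within 1 kb of a coding TSS of GENCODE M21. The share was 15.4% in optimal peaks, 21.6% in unreplicated peaks (21 to 22.2), 9.74% in the lower q-value set and 2.44% of the non-gap genome. The members were below the unreplicated peaks on 20 of 20 chromosomes, above optimal peaks on 2 of 20 and above the lower q-value set on 19 of 20. By annotation at the summit, 52.0% of members lay in introns, against 48.0% of optimal peaks and 41.2% of the genome. Intergenic summits were 35.7% of members, 39.0% of optimal peaks and 54.0% of the genome. Untranslated regions held 4.79% of members and 5.28% of optimal peaks, and coding exons 3.62% of each.

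The strongest members at promoters, in coding exons and in untranslated regions were chosen by signal, so their high signals are a description. At promoters, Snrnp40, which encodes a spliceosome protein, came after Pi4kb and Itga3, with 36.7 in replicate 1, 22.2 in replicate 2 and 58.6 in the pooled list, 9 bp from its start. In coding exons, Rgs14, a regulator of G protein signalling, had 29.7, 22.7 and 49.7 in the same order, with no motif, and Fancc, a Fanconi anaemia DNA repair gene, had 26.9, 14.4 and 42.3, with a motif of score 11.4. In untranslated regions the S100a16 member, at a calcium-binding protein gene, had 30.6, 11.8 and 45.2 and a motif of score 12.8. The members nearest to Pgd, with a pooled signal of 40.6, and Tmem41b, with replicate signals of 21.1 and 17.7, had no motif.

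The motif share was lowest near promoters in the members as in the other sets. It was found in 10.2% of members near a coding TSS (9.34 to 11.0), against 33.5% of optimal, 5.23% of unreplicated and 4.91% of lower q-value peaks there. For summits not within 1 kb of a coding TSS, it was found in 39.7% of intronic and 42.3% of intergenic members, against 72.2% and 75.4% of optimal peaks in the same classes. Coding exons had it in 26.6% of 730 members and 58.8% of 1520 optimal peaks. Windows of promoter members had a median GC content of 60.4% and a median of 5 CpG, against 50.5% and 1 CpG for members over 10 kb from a coding TSS. The median signal was 15.1 at promoters and 14.3 over 10 kb away. Within the 1 kb, 47.1% of members lay upstream of the TSS and 28.6% within 100 bp of it, against 54.4% and 33.6% of optimal peaks.

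**Figure D4:**
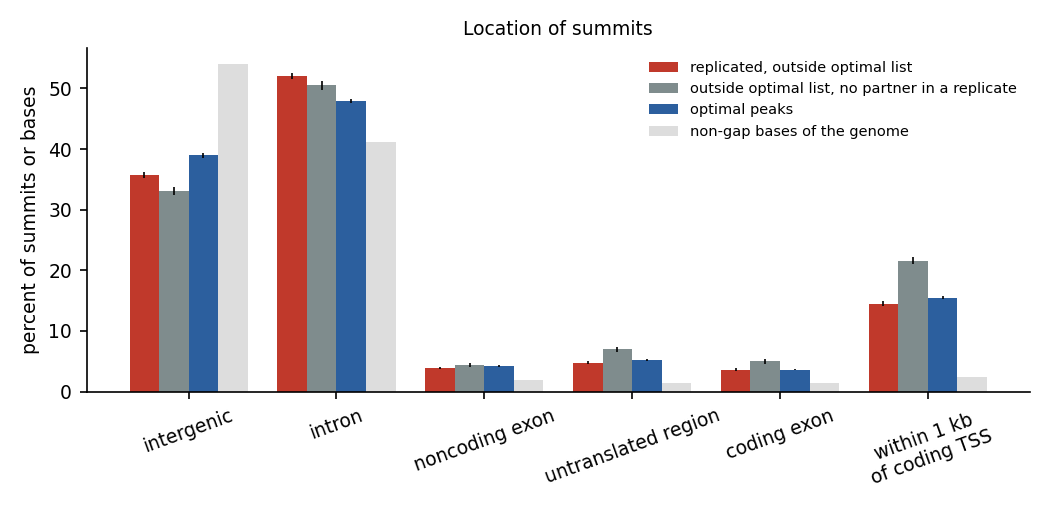
Percent of summits by annotation class, and within 1 kb of a coding TSS, for non-optimal replicated, unreplicated and optimal peaks, with the percent of non-gap genome bases; bars start at 0 and lines are exact 95% intervals. Introns hold 52.0% of members, and the promoter share of members, 14.5%, lies under the 21.6% of unreplicated peaks.

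The distance of members to the optimal list is given beside that of the other non-optimal sets, with no random positions placed for comparison. The median distance to the nearest optimal summit was 6071 bp, with quartiles of 2099 and 15633 bp, against a median of 4864 bp for unreplicated and 6030 bp for lower q-value peaks. The rule sets the lower bound of 300 bp, the smallest distance found was 329 bp, and no member had its summit inside an optimal peak. The distance went along with location and motif but not with signal, in members and in unreplicated peaks alike. Of the 4185 members within 1 kb of an optimal summit, 38.1% were near a coding TSS and 22.4% of those outside chromosome 1 had the motif. Of the 853 members over 100 kb away, 3.75% were near a coding TSS and 51.3% had the motif. The median signal stayed between 14.2 and 14.5 in every distance band. Unreplicated peaks had a coding TSS in 44% and the motif in 11.5% within 1 kb, and 6.77% and 40.7% over 100 kb away, with median signals of 11.6 to 12. Within 1 kb, the member's signal was a median 0.235 of that of its optimal neighbour, whose median was 65.4.

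**Figure D5:**
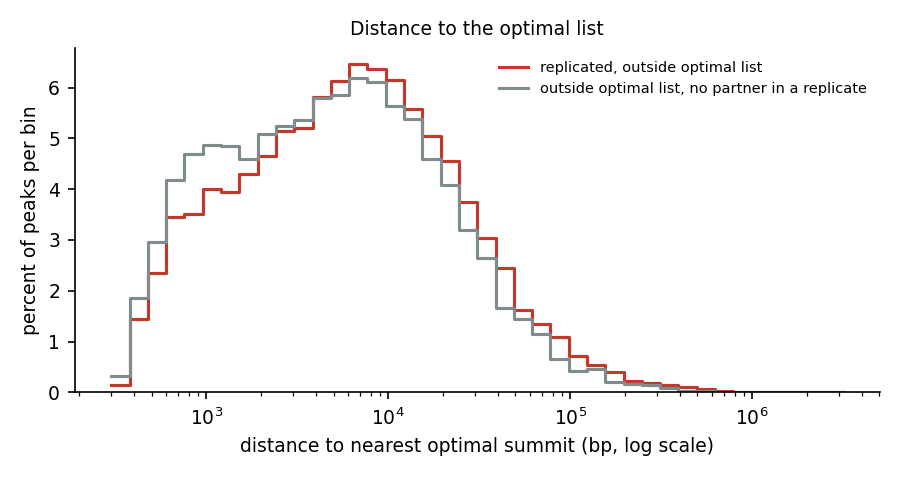
Distance to the nearest optimal summit (bp, log scale) against the percent of peaks per bin, for non-optimal replicated and unreplicated peaks. Both curves peak between 5 and 10 kb, and the members, with a median of 6071 bp, have a smaller percent of their peaks near 1 kb than the unreplicated peaks, with 4864 bp.

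The spacing of members is a description, with no random positions placed for comparison. Another member lay within 1 kb of 6.64% of them and within 10 kb of 44.1%, with a median of 12410 bp to the nearest. The member motif had the same strand as the nearest optimal motif up to 100 kb away in 50.9% of 11291 cases (50 to 51.9).

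The conservative list held 5454 members, or 15.2% (14.8 to 15.6), each with the same summit, so the members lie below the threshold of the optimal list and not of every list. It held 88.5% of optimal peaks, 3.48% of unreplicated peaks and none of the 14061 lower q-value peaks. Of the 6185 conservative peaks without an optimal summit within 300 bp, 88.2% were members. Members in the conservative list had a median signal of 22.5 and the others 13.6. The motif was in 45.1% and 33.8%, and a coding TSS within 1 kb in 17.4% and 14.0%, in the same order. The conservative share was 0.0542% below a signal of 12 and 84.6% above 30.

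The members were spread over the autosomes much as the optimal peaks were. There were 0.464 to 0.517 members per optimal peak on the autosomes, and 11.1 per Mb on chromosome 14 to 22.2 per Mb on chromosome 11. The X had 678 members, with 4.15 per Mb against 14.7 on the autosomes, a ratio of 0.282, and 0.383 per optimal peak. For optimal peaks the X ratio was 0.358. The motif share was 46.6% on X and 31.2% to 40.5% on the autosomes. No member and no optimal peak lay on Y. The strongest X member lay 75040 bp downstream of the 1700080O16Rik start, with signals of 34.5 and 9.03 in replicates 1 and 2. Its motif score was 21.6. The next was at the promoter of Atp6ap2, with 30.5 and 13.6 and no motif.

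Most genes with a member within 10 kb also had an optimal peak within 10 kb, as did most coding genes. Of 21853 coding genes, 10434, or 47.7%, had a member within 10 kb of a TSS, and 8904 of these had an optimal peak within 10 kb as well. The other 1530, or 14.7% of the genes with a member, had no optimal peak, and 5089 coding genes had neither. Over all coding genes, 69.7% had an optimal peak within 10 kb and 7% a member only. Within 1 kb, 4839 genes had a member, and 2543 of these had no optimal peak within that distance. Most coding genes also had none there, since 42.3% of all had one.

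Among genes of the glandular stomach, 12 of 34 had a member within 10 kb, below the 47.7% of all coding genes, and 2 had a member only. In this and the other lists, a pair of signals is that of replicates 1 and 2 in this order. The 2 were Slc26a9, a chloride transporter of gastric epithelium, with member signals of 11.3 and 6.64, and Bhlha15, a transcription factor of enzyme-secreting chief cells, with 8.33 and 4.25. Tff2, the trefoil peptide of mucous neck cells, had a member 70 bp inside its start and an optimal peak, with member signals of 14.4 and 12.4. Of forestomach squamous genes, 8 of 20 had a member. Pkp1, a desmosome gene, had only a member, with 16.7 and 11.5, and so had Trp63, the regulator of basal squamous cells, with 5.50 and 10.1 and the nearest optimal summit 153100 bp from the member. Sfn, a squamous 14-3-3 protein gene, had both, with member signals of 15.3 and 5.49. The pooled signals of these 6 members, 13.5 to 30.9, lay below the lower quartile of the optimal list, 34.9, and among them Trp63 alone had its higher signal in replicate 2.

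Genes of the mesenchyme and smooth muscle had a member in 19 of 25 cases, or 76.0%, and 24 had an optimal peak. Nkx2-5, a factor of the pyloric mesenchyme, had a member only, with signals of 6.76 and 5.74. Ptch1, the Hedgehog receptor gene, had both, with 21.1 and 13.6 for the member. Enteric neuron and glia genes had a member in 10 of 17 cases and an optimal peak in all 17. Among them Elavl4, a neuronal RNA-binding protein gene, had a member in an intron 3299 bp upstream of a start, with 14.3 and 8.58 and a motif score of 10.7. Endothelial genes had a member in 8 of 15 cases, with a member only at 3. At Flt4, a VEGF receptor gene, the signals were 10.9 and 16.7, with a motif score of 14.4, and at Tie1 they were 10.9 and 10.5, with no motif. Eng, a TGF-beta co-receptor gene, had both, with 19.6 and 15.9.

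Genes of tissues other than stomach also had members. The list of liver and pancreas genes had the fewest, 2 of 18 or 11.1%, with an optimal peak at 9. Pdx1, a factor of pancreas and antral stomach, had a member only, with 3.96 and 4.70. Intestinal genes had a member in 8 of 17 cases, with a member only at 3, among them Krt20 and the villin gene Vil1, with 20.8 and 10.8. Tff3, the goblet cell trefoil peptide, had both, with 7.83 and 4.69. Blood and immune genes had one in 7 of 18 cases, with a member only at 3. Cd8a and Cd4, the T cell co-receptors, were among them, with 6.96 and 7.79 at Cd8a and 6.20 and 6.46 at Cd4, where the window is wholly masked. The member of the macrophage gene Cd68 lay 93 bp from the start of Eif4a1.

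Imprinted genes had a member in 22 of 34 cases, or 64.7%, and an optimal peak in 31. The 2 with a member only were Igf2r, the clearance receptor of IGF2, with 15.9 and 10.7 and a motif score of 18.0, and Ndn, with 7.91 and 8.43 and no motif. Mest had both, with a promoter member of 26.6 and 9.97. Hox genes had a member in 20 of 39 cases and none had a member only. No gene of the Hoxd cluster, of 9, had a member, and 14 of the 20 genes shared the signal of their member with a neighbour in the cluster, so they rest on fewer peaks than genes. The member at Hoxa3 lay in a coding exon nearest to the Hoxa4 start, with 17.8 and 13.8. Genes used as housekeeping controls had one in 9 of 16 cases, with a member only at Hprt, 47 bp upstream of its start, with 9.27 and 6.93, 73.3% GC and no motif. Eef1a1, a translation factor gene, had both, with member signals of 12.2 and 14.7. CTCF and cohesin genes had one in 11 of 19 cases, none with a member only. At Smc3, a subunit of the cohesin ring, it lay 33 bp inside the start and 511 bp from an optimal summit, with 37.2 in replicate 1 and 9.33 in replicate 2. Each list is short and was read without a test against all coding genes, of which 47.7% had a member, 69.7% an optimal peak and 7% a member only, and a summit near a gene says nothing of the gene's expression, which was not measured here.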

How the data were processed

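The authors deposited 5 peak lists in mm10 coordinates, per the file headers and descriptions deposited with the samples: 3 relaxed lists, made from alignments with a control, and 2 lists after IDR. The signal of each peak is the value the authors deposited from their peak caller, is the unit of all signals given here and is not scaled between lists. The −log10 q-value and the summit offset from the peak start are as deposited. Not given in the sources used here are aligner, peak caller, IDR version and IDR threshold. The mapping of lists to replicates came from the labels.

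The members and gene lists were chosen with earlier results of these data known. Sequence came from the RefSeq copy of GRCm38.p6 (mm10), and genes from GENCODE M21. The motif matrix was learned on chromosome 1, from 962 alignable windows among its 1000 optimal peaks of highest signal, and the motif was called within 50 bp of a summit at a score of 10.6, which 1% of 100000 random windows reached. In simulated data the member rule picked the same peaks as a direct search, and all planted motifs were found. The planted motifs came from a made-up matrix in random letters, so this does not show how many weak CTCF sites are found. Intervals are exact Clopper-Pearson 95% intervals. Named members were the 10 of highest signal, the 3 highest in each location class, up to 3 genes per list, the 3 of highest motif score and the 2 strongest on X, leaving out chromosome 18 and unplaced scaffolds. A gene that this rule takes is not reported here. Software was matplotlib 3.10.9, scipy 1.17.1, Python 3.11.15, numba 0.67.0, pandas 2.3.3 and numpy 2.4.6. Alternatives changed each distance and threshold of the rule, the replicates required, the motif and TSS windows and the gene distance.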

Additional observations from a re-analysis of the deposited data

Results flagged for a closer look

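Outside the assembled chromosomes, which the report does not use, 12 peaks on unplaced scaffolds met the same rule. No control sample was analysed here to set them against.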

How the results depend on the processing

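The number of members, 35865, ran from 26092 to 46929 over the alternatives and stayed within 1.5 times. With a −log10 q-value of at least 3, the share near a coding TSS was 15.3%, the motif share 39.0%, the conservative share 20.9% and the share of coding genes with a member 39.7%. Leaving out optimal neighbours within 1000 bp gave 11.4%, 37.2% and 42.0% for TSS, motif and genes, with a median distance of 7480 bp. Replicate summits within 50 bp gave 13.1%, 38.6% and 41%, a distance of 6326 bp and a conservative share of 16.7%. Requiring only 1 replicate list gave 14.9% to 16.4% for TSS, 32.3% to 34.1% for motif, 5748 to 5964 bp, 12.4% to 13.9% conservative and 51.2% to 56.0% of genes. A coding TSS within 2.5 kb gave 21.4%, and any TSS within 1 kb 20.2%. The motif share was 5.24% at the threshold of 0.1% and 27.2% with 100 bp on either side. With X members left out, 46.8% of all coding genes, X genes included, had a member within 10 kb. Within 5 kb of a TSS, with X members kept, 36.9% did. Without the conservative members, an alternative chosen after seeing the data like the next, the TSS share was 14.0% and the motif share 33.8%. Without windows over 50% masked the motif share was 23.5%. The cause of these shifts was not tested beyond what each alternative leaves out. No paired analysis was possible because there was 1 group.

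Limits are that the labels give both replicates the same tissue sample, that depth, expression, methylation and read mapping to repeats were not measured here, and that peaks are not independent, so intervals cover counting error only.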
